A study of Rattus norvegicus with 12 samples.

Results

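The AP-1 family comprises basic leucine zipper (bZIP) transcription factors of the FOS, JUN, ATF3 and BATF branches. The 10 family genes considered were Fos, Fosb, Fosl1, Fosl2, Jun, Junb, Jund, Atf3, Batf and Batf3, found by their gene symbols in a table of RNA-seq counts. Of these 10, the table held 9 among its 17268 genes. Junb had no entry and is only named.

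The counts came from the cerebral cortex of adult male Sprague Dawley rats with an embolic stroke, with 4 groups of 3 libraries and 12 libraries in all. The labels number the libraries of a group as replicates and name no animal. Each library was taken to come from a separate rat, and only on that reading do p-values measure variation among animals. Sham rats had the surgery with no clot injected. Model rats were injected with a clot that lodged in the middle cerebral artery and were not treated. The rt-PA rats had the same clot and, at 6 h, 10 mg/kg of rt-PA, a recombinant plasminogen activator that dissolves clots, through the tail vein. The rt-PA+Acu rats also received XNKQ acupuncture, a needling scheme used for acute stroke, at 2 h, at the points Shuigou (GV26) and Neiguan (PC6). The hour of tissue collection for sequencing was not given in the sources used here, and no group had acupuncture without rt-PA, so acupuncture on its own was not measured. Total counts ranged from 11678450 to 13616935 per library, and 3 counts stood for 0.22 to 0.257 CPM, counts scaled by library size. Such floors cover counting error only.

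AP-1 factors act as pairs: JUN proteins bind DNA as homodimers or with a FOS, ATF or BATF partner, while FOS proteins need a JUN partner. In brain, Fos and Fosb are immediate early genes, switched on by neuronal firing and by injury, and Jun and Atf3 are well known for their response to damaged axons and cell stress. The dimers bind the TPA response element, TGACTCA, and the cyclic AMP response element, TGACGTCA, and many of their target genes encode proteases, cytokines and other products of wounded tissue.

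A pair of libraries stood apart, Sham replicate 1 for some family members and Model replicate 3 for a gene outside the family. Sham replicate 1 held 3.25 times the mean of the other Sham libraries for Fos, 5.63 times for Fosb and 20.5 times for Atf3. Its ratios for Fosl1, Fosl2, Jun and Jund were 1.03, 1.16, 1.24 and 1.14. Over all genes with a mean of at least 10 counts in Sham, 146 of 12724 (1.15%) exceeded 2-fold in that library, and 4 of 16 other immediate early genes did (Ier2, Btg2, Klf4 and Myc). Model replicate 3 stood with the Sham libraries for Rpl39, a ribosomal protein gene that was chosen after its values were seen. Rpl39 was at 11.7 CPM there and at 60.5 and 63.2 CPM in the other Model libraries, against 9.17 to 11.5 CPM in Sham, 59.5 to 71.1 CPM in rt-PA and 42.6 to 53.6 CPM in rt-PA+Acu.

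The layout across the groups differed within the FOS branch. Fos encodes the founding FOS protein, which strengthens DNA binding of its JUN partner. The Sham libraries held 50.6, 17.4 and 13.7 CPM of Fos and the Model libraries 58.3, 29.7 and 76.2 CPM. The rt-PA libraries held 26, 47.9 and 34.1 CPM and the rt-PA+Acu libraries 5.73, 7.16 and 23.3 CPM. Model, rt-PA and Sham overlapped, and each rt-PA+Acu library was below each Model and each rt-PA library. The order of mean levels was Model (54.8 ± 23.5, SD, n = 3), rt-PA (36 ± 11.1), Sham (27.2 ± 20.3) and rt-PA+Acu (12.1 ± 9.75), and each neighbouring pair in that order was closer than the larger of its SDs.

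Fosb encodes a FOS protein whose truncated form, ΔFosB, persists after repeated stimulation of neurons. It was at 87.5, 14.1 and 17 CPM in Sham and at 122, 95.2 and 132 CPM in Model. In rt-PA it was at 31.8, 43 and 34.3 CPM, and in rt-PA+Acu at 8.01, 16 and 11.9 CPM. All Model libraries lay above all others of the 12, with Sham replicate 1 the next highest. The mean levels were 116 ± 19.1 in Model, 39.5 ± 41.6 in Sham, 36.4 ± 5.84 in rt-PA, and lowest at 11.9 ± 3.98 in rt-PA+Acu. Sham and rt-PA did not differ beyond the Sham spread.

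Fosl1 encodes FRA1, a FOS protein without the strong activation domain of Fos, studied in cell migration and wound repair. Sham libraries held 49.3, 52.2 and 43.5 CPM and Model libraries 103, 75.4 and 72 CPM. The rt-PA libraries held 89.8, 70.4 and 69.3 CPM and the rt-PA+Acu libraries 36.7, 37.8 and 32.9 CPM. Model and rt-PA overlapped and both lay above Sham, and every rt-PA+Acu library lay below every Sham library.

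Fosl2, the gene of FRA2, had the same layout. Its levels were 33.4, 31 and 26.4 CPM in Sham, 72.4, 68.1 and 73.8 CPM in Model, 87.4, 64.5 and 75.8 CPM in rt-PA, and 26, 11.8 and 25.3 CPM in rt-PA+Acu. Model (71.4 ± 2.97) and rt-PA (75.9 ± 11.4) did not differ beyond their spread, and both exceeded Sham (30.3 ± 3.59) and rt-PA+Acu (21 ± 8) in every library.

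In the JUN branch, Jun and Jund parted. Jun encodes c-Jun, the main substrate of the JNK kinases, which activates its own promoter. Sham libraries held 115, 102 and 84.3 CPM of Jun and Model libraries 491, 364 and 430 CPM. The rt-PA libraries held 405, 340 and 387 CPM, and the rt-PA+Acu libraries 84.4, 82.8 and 163 CPM. Model and rt-PA overlapped far above Sham, and Sham and rt-PA+Acu overlapped, with rt-PA+Acu replicate 3 above every Sham library.

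Jund encodes the most steadily expressed JUN protein, which restrains growth in many cells. It was at 87.6, 82.3 and 71.3 CPM in Sham, 54.7, 56.8 and 97.4 CPM in Model, 73.4, 70.8 and 58.7 CPM in rt-PA, and 59.2, 52.9 and 57.5 CPM in rt-PA+Acu. Model replicate 3 was the highest of the 12 libraries, and the other Model libraries were below all Sham libraries. Group means ran from 80.4 ± 8.31 in Sham through 69.6 ± 24 in Model and 67.7 ± 7.85 in rt-PA to 56.6 ± 3.29 in rt-PA+Acu, and neighbours in that order overlapped.

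Atf3 encodes a stress-induced bZIP factor that pairs with JUN proteins and represses or activates according to its partner. It was at 9.18, 0.459 and 0.437 CPM in Sham and at 23.1, 24.8 and 53.7 CPM in Model. In rt-PA it was at 39.8, 43.6 and 22.9 CPM, and in rt-PA+Acu at 0.758, 1.48 and 3.21 CPM. These levels rested on 114, 6 and 5 counts in Sham and on 9, 17 and 43 counts in rt-PA+Acu, against 293 to 650 counts in Model and 311 to 607 counts in rt-PA. Every Model and rt-PA library was above every Sham and rt-PA+Acu library, and Sham replicate 1 exceeded each rt-PA+Acu library.

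The BATF branch, known from immune cells, was barely detected. Batf, which pairs with JUN proteins in lymphocytes, had 0, 0 and 2 counts in Sham, 1, 1 and 6 in Model, 15, 5 and 5 in rt-PA, and 0, 1 and 3 in rt-PA+Acu. Batf3, needed for a class of dendritic cells, had at most 6 counts in any library, in rt-PA replicate 3. Neither gene had enough counts to be tested in any comparison, so 7 of the 10 members were tested in each. Batf lay above every Sham library in each rt-PA library, and with no filter beyond 1 count it was a DEG there.

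**Figure D1:**
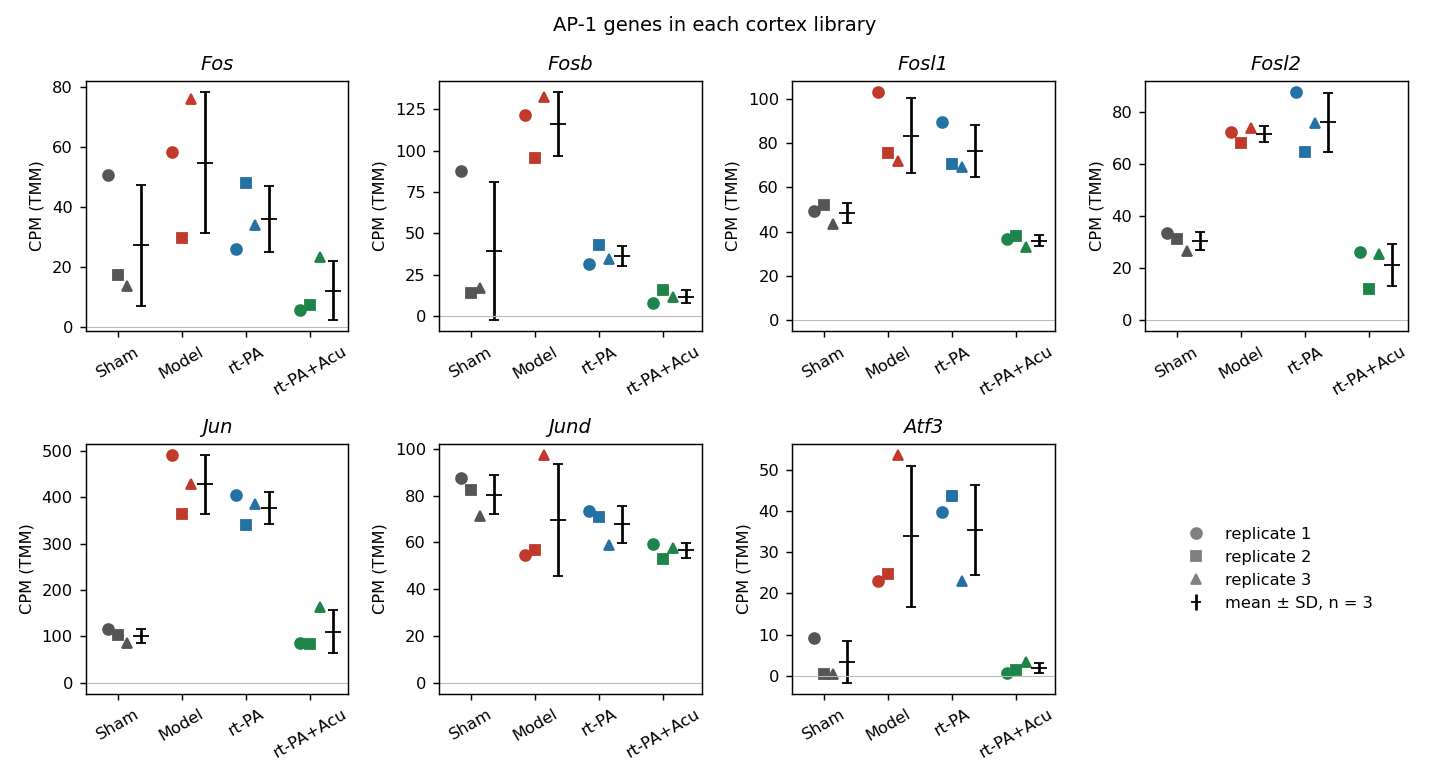
TMM-scaled CPM (vertical axes) of the 7 tested AP-1 genes in each of 12 libraries by group, with the replicate number as the marker shape and black bars for the mean ± SD (n = 3). Jun, Fosl2 and Atf3 in Model and rt-PA sit above every Sham library, and Fos, Fosb and Atf3 in Sham replicate 1 (50.6, 87.5 and 9.18 CPM) sit above the other Sham libraries.

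Promoter sequences were at hand from RefSeq (build GRCr8) for 7 of the 10 members: Fosb, Fosl1, Fosl2, Junb, Jund, Batf and Batf3. Each covers 300 bases around the annotated start. The windows of Fosb, Fosl1, Fosl2 and Jund are printed 5′ to 3′ on the gene's strand. They are the tested members with a sequence at hand, and Fos, Jun and Atf3 had none. The sequences lie at chr1:88089135-88089434 (minus strand) for Fosb, chr1:212183635-212183934 (plus strand) for Fosl1, chr6:30039220-30039519 (minus strand) for Fosl2 and chr16:18769722-18770021 (minus strand) for Jund. Capitals mark matches on either strand to the TPA response element TGACTCA, to the cyclic AMP response element TGACGTCA or its 5-base core TGACG, which lies inside the full element, or to the CArG box, the serum response element. On the other strand the core reads CGTCA.
Fosb: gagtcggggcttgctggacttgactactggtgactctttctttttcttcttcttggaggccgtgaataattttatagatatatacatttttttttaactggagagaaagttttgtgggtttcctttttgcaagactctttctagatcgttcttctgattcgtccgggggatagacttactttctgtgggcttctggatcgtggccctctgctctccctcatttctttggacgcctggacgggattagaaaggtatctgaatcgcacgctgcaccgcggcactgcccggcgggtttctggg
Fosl1: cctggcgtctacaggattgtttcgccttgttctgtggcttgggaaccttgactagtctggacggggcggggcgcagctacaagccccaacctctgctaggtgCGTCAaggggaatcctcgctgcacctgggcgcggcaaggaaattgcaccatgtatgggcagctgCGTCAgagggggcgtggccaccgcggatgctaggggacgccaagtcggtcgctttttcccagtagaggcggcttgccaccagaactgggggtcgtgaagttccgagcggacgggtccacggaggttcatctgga
Fosl2: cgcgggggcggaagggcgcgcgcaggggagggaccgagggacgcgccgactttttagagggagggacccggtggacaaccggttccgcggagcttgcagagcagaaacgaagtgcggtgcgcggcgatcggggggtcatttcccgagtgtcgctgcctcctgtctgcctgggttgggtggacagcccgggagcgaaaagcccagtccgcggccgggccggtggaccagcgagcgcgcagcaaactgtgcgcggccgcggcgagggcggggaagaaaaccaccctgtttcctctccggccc
Jund: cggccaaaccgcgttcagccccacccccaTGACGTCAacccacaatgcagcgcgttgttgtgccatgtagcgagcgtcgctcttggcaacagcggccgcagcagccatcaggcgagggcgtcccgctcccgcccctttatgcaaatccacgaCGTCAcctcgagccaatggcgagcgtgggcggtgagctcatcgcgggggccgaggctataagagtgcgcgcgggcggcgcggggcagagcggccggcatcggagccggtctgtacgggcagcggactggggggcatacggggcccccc
The Jund window holds 1 TGACGTCA, 221 bases before the start, and TGACG at 221, 218 and 98 bases before it, the first pair inside the longer motif. Fosl1 holds TGACG on the other strand, 148 and 84 bases before its start, Batf holds 1 TGACG 55 bases before its start and Junb 1 at 155 bases. The Fosb, Fosl2 and Batf3 windows hold none of the motifs, and no member's window holds TGACTCA or a CArG box. Among all 33469 promoters in the reference, 4.63% hold TGACTCA, 1.83% TGACGTCA, 21.2% TGACG and 1.64% a CArG box. A match is a description of letters, and no match says only that these letters are absent from this window.

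The comparison of Model with Sham asks what the untreated stroke changed. Jun, Fosl2 and Atf3 rose, each with all 3 Model libraries above all 3 Sham libraries. A differentially expressed gene (DEG) had a Benjamini-Hochberg adjusted p under 0.05 over all genes tested, from the quasi-likelihood test of edgeR, and an absolute log2 fold change over 1. By this rule 3 of 7 tested members were higher in Model, where 9.43% of 12884 genes were (1215 genes), and 0 were lower, where 12% of genes were (1550 genes). At an unadjusted p under 0.05 with the same fold, and by DESeq2, no member was lower either.

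Jun was 4.27-fold higher in Model (log2 fold change 2.10, SE 0.151, adjusted p = 3.05e-05). Fosl2 was 2.37-fold higher (log2 1.24, SE 0.112, adjusted p = 7.32e-05). Atf3 was 10-fold higher (log2 3.33, SE 0.896, adjusted p = 0.0136), with the wide SE of a group that holds Sham replicate 1. Fosl1 had an adjusted p of 0.00274 but a log2 fold change of 0.80 (SE 0.153), under the fold threshold. Fosb was higher in each Model library than in any Sham library, with log2 1.56 (SE 0.61), yet its adjusted p was 0.0584. Fos gave log2 1.01 (SE 0.501, adjusted p = 0.12) and Jund −0.20 (SE 0.213, adjusted p = 0.447), both with overlapping libraries.

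The calls for Fos and Fosb varied with the setting. Without Sham replicate 1 the count of AP-1 DEGs was 5, all higher, where 1176 of 13043 genes were. Fos had log2 1.81 (adjusted p = 0.00807) and Fosb log2 2.91 (adjusted p = 0.000136) there. With all libraries kept, both were DEGs when replicate numbers were blocks (adjusted p = 0.0493 and 0.0107), and Fosb in a fit of all 12 libraries (0.0299) and at an unadjusted p with the fold. Over its 15 alternatives the adjusted p of Fos ran from 0.0059 to 0.306 and that of Fosb from 3.48e-05 to 0.161. Atf3 had log2 6.21 without that library, and its adjusted p over 14 alternatives ran from 1.97e-05 to 0.0394. Without Model replicate 3 the count was 3, where 1330 of 13070 genes were higher. With both libraries left out, an alternative added after the data were seen, it was 5, where 1296 of 12963 genes were higher. Without Model replicate 3, Jund had log2 −0.52 (adjusted p = 0.00433, from 0.00433 to 0.84 over 15 alternatives), still under the fold threshold.

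**Figure D2:**
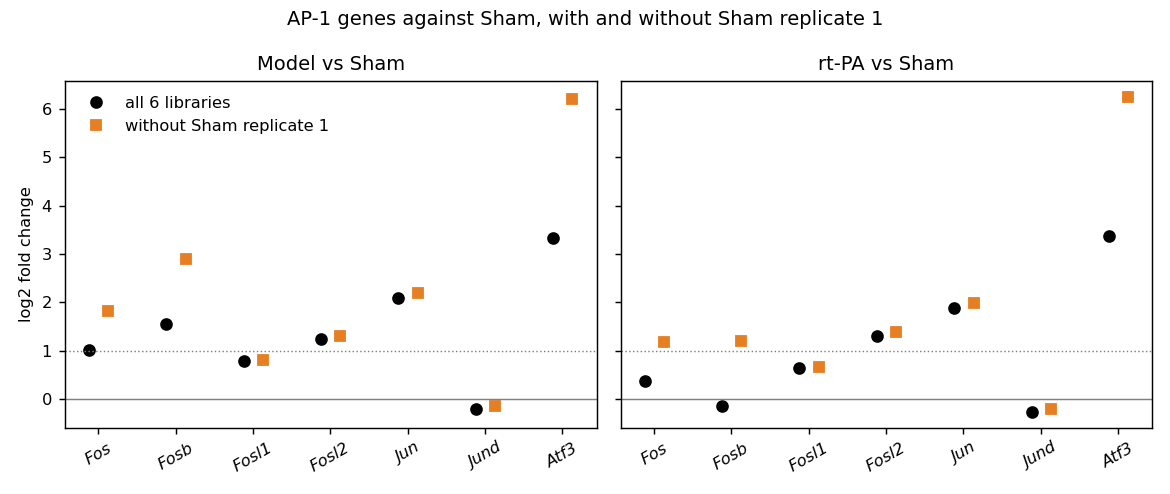
Log2 fold change (vertical axis) of the 7 tested AP-1 genes in Model vs Sham and rt-PA vs Sham, from all 6 libraries (circles) and without Sham replicate 1 (squares), with the fold threshold dotted. Fosb in Model vs Sham goes from 1.56 to 2.91 and in rt-PA vs Sham from −0.14 to 1.21, while Jun, Fosl1, Fosl2 and Jund stay close to their values.

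The genes around AP-1 were read from the same test. The list called bZIP partners holds other bZIP factors, and its name does not mean that each one pairs with AP-1 proteins. Of these, 6 of 15 tested rose and 0 fell, with a median log2 fold change of 0.761 beside 0.0142 over all genes. Atf4, the central factor of the integrated stress response, rose 2.62-fold from a mean of 174 to 453 CPM (adjusted p = 2.6e-05). Crem, a cyclic AMP responsive factor, rose 3.34-fold from 19.3 to 64.2 CPM (adjusted p = 5.78e-05). Ddit3, the gene of the stress factor CHOP, rose 3.1-fold, and Bach1, a repressor of antioxidant genes, rose 2.58-fold.

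Among kinases and factors upstream of AP-1, 1 of 18 rose and 2 fell, with a median of −0.0383. Map2k3, a kinase that activates p38, rose 2.96-fold from 9.83 to 28.9 CPM (adjusted p = 8.49e-05). Map2k6, the other main activator of p38, was 7.27-fold lower, at 3.67 CPM against 26.9 CPM (adjusted p = 2.25e-05). Mapk3, which encodes the kinase ERK1, was 2.52-fold lower (adjusted p = 0.000335).

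Of the known AP-1 target genes, 11 of 15 tested rose and 0 fell, with a median of 4.1. Sham libraries held 57.7, 55.4 and 54.3 CPM of Ptgs2, the inducible cyclooxygenase, and Model libraries 1383, 830 and 498 CPM, a 16.3-fold rise (adjusted p = 5.96e-05). Cd44, a hyaluronan receptor, went from 6.28, 8.64 and 6.98 CPM to 327, 217 and 192 CPM (33.7-fold, adjusted p = 6.4e-06). Timp1, an inhibitor of matrix metalloproteinases, had a mean of 2.11 CPM in Sham and 228 CPM in Model (log2 6.76, adjusted p = 7.79e-06), and Spp1, the gene of osteopontin, 1.17 and 228 CPM (log2 7.64, adjusted p = 0.000327). Ccl2, a monocyte attractant, had 0 counts in every Sham library and was at least 829-fold higher in Model against a floor of 3 counts per library; with Ccl2 at that bound the list's median was 4.1 as well. Without Sham replicate 3, Spp1 was 382-fold higher.

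Nerve injury genes known with Jun and Atf3 gave 6 of 9 higher and 0 lower, with a median of 2.18. Hspb1, a small heat shock protein gene, went from 4.35, 7.57 and 7.6 CPM in Sham to 280, 282 and 321 CPM in Model (45.5-fold, adjusted p = 3.41e-06). Sprr1a, a gene of regenerating neurons, went from a mean of 1.39 to 229 CPM (log2 7.39, adjusted p = 2.57e-05), and it was 303-fold higher without Sham replicate 3. Gadd45a, a stress-induced growth arrest gene, rose 8.07-fold and Sox11, a neuronal transcription factor gene, 4.21-fold.

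The other immediate early genes split, with 5 of 16 higher and 3 lower and a median of 0.367. Klf6, a zinc finger factor gene, rose 2.72-fold from 64.9 to 176 CPM (adjusted p = 2.74e-05) and Ier5 2.04-fold. Arc, a regulator of synaptic strength, was 2.18-fold lower at 78.7 CPM against 173 CPM (adjusted p = 0.00947), and Nr4a1, an orphan nuclear receptor gene, 3.02-fold lower. The choice to give list genes and counts without single libraries, here and below, was made after the data were seen. Leaving out Sham replicate 1, the counts were 5 higher for the partners, 11 for the targets, 6 for the injury genes, and 4 higher and 3 lower for the other immediate early genes. Without Model replicate 3 the last list had 6 higher and 4 lower with a median of −0.167, and without both doubted libraries the same counts with a median of 0.0245. Arc was not a DEG without Sham replicate 2 (1.9-fold lower) or Model replicate 2 (1.85-fold), nor Ier5 without Sham replicate 1, Sham replicate 2 or Model replicate 1 (1.92-fold to 1.97-fold higher).

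The comparison of rt-PA with Model asks what delayed rt-PA changed. Fosb had the smallest p-value of all 12941 genes tested. Its rt-PA libraries (31.8, 43 and 34.3 CPM) lay below its Model libraries (122, 95.2 and 132 CPM), 3.19-fold lower by the fit (log2 −1.68, SE 0.163). With an unadjusted p of 8.83e-06, its adjusted p was 0.0847 and it was not a DEG.

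By edgeR 0 of 7 members were DEGs in either direction, and 0% of all genes were higher and 0% lower. DESeq2 called Fosb (log2 −1.68, adjusted p = 1.4e-15), 1 member lower where 0.196% of 12258 genes were (24 genes) and 0 members higher where 0.473% were (58 genes). At an unadjusted p under 0.05 with the fold, edgeR also took Fosb alone among members, 1 lower where 0.417% of genes were (54 genes), and 0 higher where 1.45% were (187 genes). Over 14 alternatives its adjusted p ran from 1.4e-15 to 0.302 and its log2 fold change from −1.81 to −1.58, so the size and direction held while the call differed between tools.

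The other 6 members overlapped between rt-PA and Model. Their log2 fold changes were −0.60 for Fos (SE 0.345, adjusted p = 0.622), −0.12 for Fosl1 (SE 0.168), 0.09 for Fosl2 (SE 0.124), −0.18 for Jun (SE 0.13), −0.04 for Jund (SE 0.225) and 0.07 for Atf3 (SE 0.363). The last 5 had adjusted p-values from 0.697 to 0.977. Whether Fosb differed from them in its response was not tested. The median over the tested members was −0.125 and over all genes 0.00391.

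No gene of the AP-1 lists was a DEG in this comparison by edgeR. At an unadjusted p with the fold, Arc, Egr2 and Egr4 were lower and the target Spp1 was higher, all named after their values were seen. DESeq2 called 3 of the other immediate early genes lower and no gene of the remaining lists. The medians were 0.0551 for the bZIP partners, −0.019 for the upstream kinases and factors, 0.0678 for the targets, −0.142 for the nerve injury genes and −0.441 for the other immediate early genes. Markers of blood cells stood higher in some rt-PA libraries. Summed levels of 5 monocyte and macrophage markers, led by Lyz2, were 357, 151 and 146 CPM in rt-PA against 113, 89.7 and 143 CPM in Model, with 0 of 5 called by edgeR and 3 higher by DESeq2 and at an unadjusted p with the fold. Of 4 meningeal and fibroblast markers, with a median of 2.21, 0 were called by edgeR, 2 were higher by DESeq2 and 4 at an unadjusted p with the fold.

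The comparison of rt-PA+Acu with rt-PA asks what acupuncture added to delayed rt-PA. Atf3, Fosl2, Jun, Fosb and Fosl1 fell, and each had all 3 rt-PA+Acu libraries below all 3 rt-PA libraries. That made 5 of 7 members lower, where 8.16% of 12999 genes were (1061 genes), and 0 higher, where 7.17% were (932 genes). No member was higher at an unadjusted p under 0.05 with the fold or by DESeq2.

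Atf3 was 19-fold lower (log2 −4.25, SE 0.474, adjusted p = 0.00153), at 1.82 ± 1.26 CPM against 35.4 ± 11 CPM (SD, n = 3). Fosl2 was 3.6-fold lower (log2 −1.85, SE 0.29, adjusted p = 0.00437) and Jun 3.42-fold lower (log2 −1.77, SE 0.272, adjusted p = 0.00401). Fosb was 3.04-fold lower (SE of log2 0.254, adjusted p = 0.00446). Fosl1 was 2.14-fold lower (log2 −1.10, SE 0.136, adjusted p = 0.00205). Fos had log2 −1.56 (SE 0.517) with no overlap of libraries, and its adjusted p of 0.0501 left it outside the call. Jund had log2 −0.26 (SE 0.12, adjusted p = 0.134) with overlapping libraries.

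The calls of Fos and Fosl1 varied with the setting. Without rt-PA+Acu replicate 3, which was the highest of its group for Fos, Jun and Atf3, Fos had log2 −2.48 (adjusted p = 0.00178). There 6 members were DEGs, all lower, where 1360 of 13184 genes were. Without rt-PA replicate 1, Fosl1 had log2 −0.97 (adjusted p = 0.00733) and 4 members were DEGs, all lower, where 770 of 13148 genes were. Over 14 alternatives the adjusted p of Fos ran from 0.00178 to 0.149 and that of Fosl1 from 2.67e-09 to 0.0113. Fos was also a DEG by DESeq2, by library size alone, with no filter beyond 1 count, at 10 counts in every library, with replicate numbers as blocks and at an unadjusted p.

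**Figure D3:**
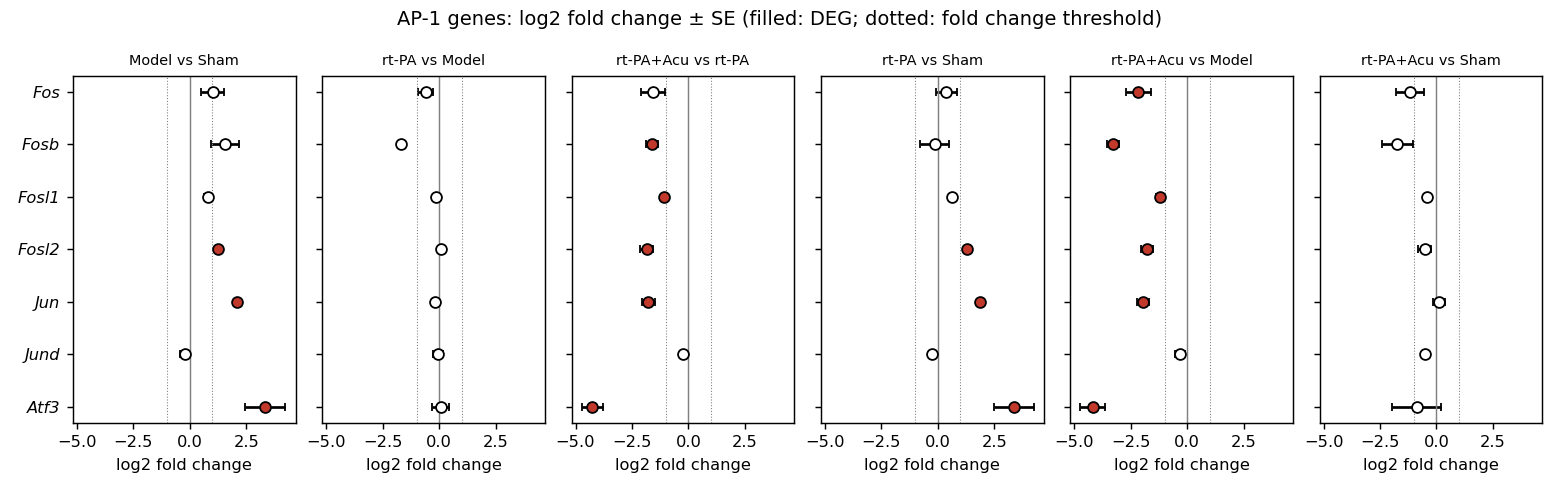
Log2 fold change ± SE (horizontal axes) of the 7 tested AP-1 genes in 6 pairwise comparisons of groups of 3 libraries, filled where the gene was a DEG in edgeR. The 5 filled genes of rt-PA+Acu vs rt-PA lie between −4.25 (Atf3) and −1.10 (Fosl1), and Jund is open in all 6 panels.

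Around the family, 7 of 15 bZIP partners fell and 0 rose, with a median of −0.982 beside −0.00273 over all genes. Crem was 4.7-fold lower, at 11.8 CPM against 55.8 CPM (adjusted p = 0.00104), and Atf4 2.6-fold lower, at 155 against 405 CPM (adjusted p = 0.00123). Bach1 was 2.66-fold and Ddit3 2.46-fold lower. Of the upstream kinases and factors 2 of 18 rose and 2 fell, with a median of 0.177. Among those that rose, Map2k6 was 7.68-fold higher. Map2k3 was 2.83-fold lower, and so was Map3k8, an activator of the ERK cascade, by 2.64-fold.

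Of the AP-1 targets 14 of 15 fell and 0 rose, with a median of −2.77. For the lists, each count of 0 in each of the 4 comparisons with AP-1 DEGs was 0 by DESeq2 and at an unadjusted p with the fold too. Spp1 was at 947, 1174 and 526 CPM in rt-PA and at 12.4, 16.8 and 174 CPM in rt-PA+Acu (log2 −3.69, adjusted p = 0.026). Timp1 was at 469, 139 and 407 CPM and then at 23.3, 13.9 and 56.3 CPM (10.8-fold lower, adjusted p = 0.00689). Cd44 was 6.03-fold lower (adjusted p = 0.00909) and Ptgs2 4.14-fold lower (adjusted p = 0.0146). Rt-PA+Acu replicate 3 was the highest of its group for Spp1 and Timp1, and without it Spp1 was 60.2-fold, Timp1 18.1-fold and Cd44 11.5-fold lower. Spp1 was not a DEG without replicate 1 or 2 of either group (adjusted p from 0.0511 to 0.0707), nor Ptgs2 without rt-PA+Acu replicate 2 (adjusted p = 0.0597).

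Nerve injury genes gave 5 of 9 lower and 0 higher (median −1.83). Sprr1a was 7.7-fold lower at 21.1 against 164 CPM (adjusted p = 0.00594), Sox11 5-fold, Gadd45a 3.84-fold, and Ecel1, a peptidase gene of injured neurons, 3.55-fold. Of the other immediate early genes 8 of 16 fell and 0 rose (median −1.15). Klf6 was 2.49-fold lower at 79.6 against 199 CPM (adjusted p = 0.00133). Myc, a growth regulator, was 6.78-fold lower, Egr3, a zinc finger gene of active neurons, 2.27-fold, and Btg2, an antiproliferative gene, 2.17-fold. Without rt-PA+Acu replicate 3, Sprr1a was 14-fold and Gadd45a 5.92-fold lower. Egr3 was not a DEG without rt-PA replicate 1 (1.78-fold lower) or rt-PA+Acu replicate 1 (adjusted p = 0.0537), nor Btg2 without rt-PA replicate 2 (1.93-fold lower).

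**Figure D4:**
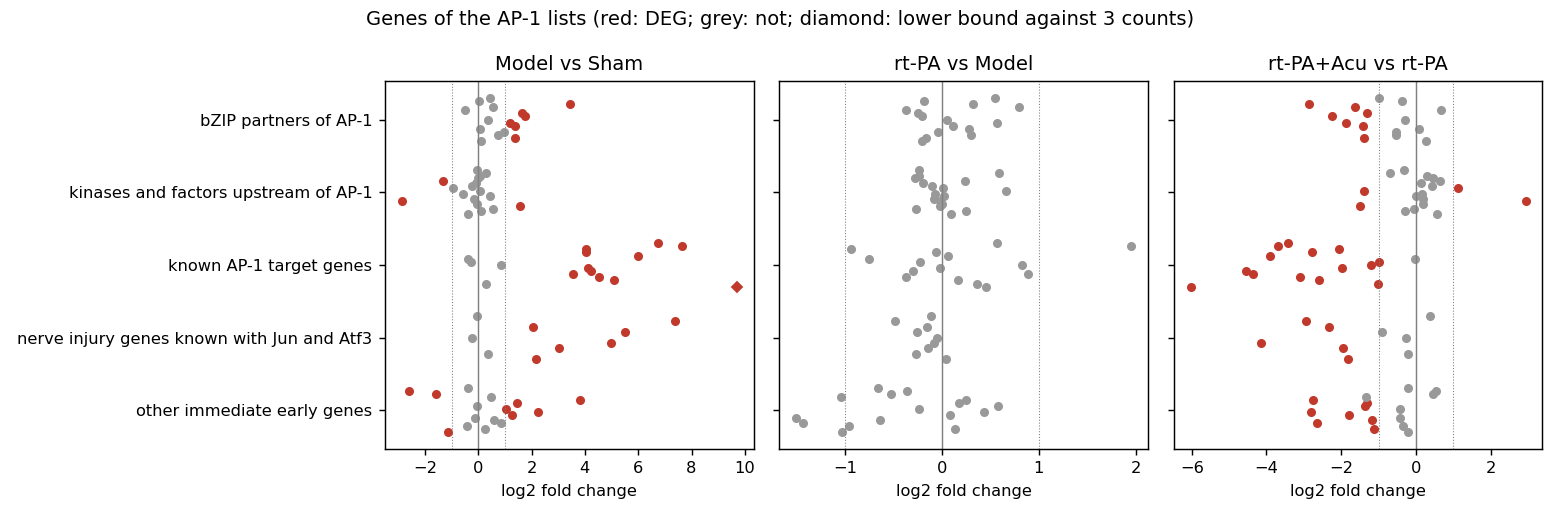
Log2 fold change (horizontal axes) of each tested gene of 5 lists around AP-1 in 3 comparisons, 1 point per gene, red for DEGs in edgeR and a diamond for a bound against 3 counts. With acupuncture (right panel), 14 of 15 AP-1 targets are red and below 0, and in rt-PA vs Model no gene is red.

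The comparison of rt-PA with Sham gives the level that stroke and rt-PA left together, and it shares the Sham libraries with Model vs Sham and the rt-PA libraries with the 2 comparisons before it. Jun, Atf3 and Fosl2 rose, with no overlap of libraries. They made 3 of 7 members higher, where 11% of 13023 genes were (1431 genes), and 0 lower, where 11.6% were (1509 genes); no member was lower by DESeq2 or at an unadjusted p with the fold. Jun had log2 1.88 (SE 0.133, adjusted p = 3.19e-05), Atf3 log2 3.37 (SE 0.874, adjusted p = 0.0123) and Fosl2 an SE of 0.139 and an adjusted p of 0.000187 at 75.9 against 30.3 CPM. Without Sham replicate 1, Atf3 had log2 6.25 (adjusted p = 0.000202, from 0.000202 to 0.0375 over 13 alternatives).

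Fosl1 had log2 0.64 (SE 0.127, adjusted p = 0.00349), under the fold threshold. Fos had log2 0.38 (SE 0.469, adjusted p = 0.518), Fosb −0.14 (SE 0.625, adjusted p = 0.865) and Jund −0.27 (SE 0.118, adjusted p = 0.0859). Fos and Fosb were called without Sham replicate 1 and under no other alternative run here. Without it Fos had log2 1.19 (adjusted p = 0.0132) and Fosb log2 1.21 (adjusted p = 0.00252), both DEGs. That made 5 members higher, where 1411 of 13241 genes were. Over 14 alternatives the adjusted p of Fos ran from 0.0132 to 0.925 and that of Fosb from 0.00252 to 0.997.

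For the lists, 8 of 15 bZIP partners rose (median 1.04), as did 12 of 15 targets (median 4.05, also with Ccl2 at its bound) and 6 of 9 nerve injury genes (median 2.2), and none of these 3 lists had a DEG that fell. Atf4 was 2.29-fold, Crem 2.85-fold, Ddit3 2.56-fold and Atf5, a partner expressed under stress, 2.05-fold higher. Spp1 had log2 9.56, Timp1 log2 7.30, Cd44 a 37.1-fold and Ptgs2 an 8.3-fold rise, Hspb1 37.3-fold and Sprr1a 118-fold. Of the kinases and upstream factors 1 of 18 rose (Map2k3, 2.85-fold) and 2 fell (Map2k6, 7.5-fold lower, and Mapk3, 2.18-fold lower), with a median of −0.289. The other immediate early genes gave 4 higher and 6 lower of 16 (median −0.342), with Klf6 3.02-fold higher, Arc 4.55-fold, Nr4a1 4.44-fold and Egr1, a zinc finger gene of neuronal activity, 2.62-fold lower. Without Sham replicate 1, the partner Jdp2 and the target Penk were also DEGs, both lower, Mapk3 was not a DEG (1.89-fold lower), and the other immediate early genes had 5 higher and 5 lower. Atf5 was not a DEG without Sham replicate 2 (1.96-fold higher) or rt-PA replicate 1 (1.8-fold), and without Sham replicate 3 Spp1 was 1450-fold and Sprr1a 214-fold higher.

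The comparison of rt-PA+Acu with Model sets both treatments against the untreated stroke. It shares its libraries with the comparisons above, so its values stand beside theirs and are no further evidence. Atf3, Fosb, Fos, Jun, Fosl2 and Fosl1 fell, 6 of 7 members lower where 6.62% of 12855 genes were (851 genes) and 0 higher where 7.9% were (1015 genes), with no member higher by DESeq2 or at an unadjusted p with the fold. Atf3 was 18.2-fold lower (log2 −4.19, SE 0.534, adjusted p = 0.00192) and Fosb 9.74-fold lower (SE of log2 0.255, adjusted p = 0.000507).

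Fos was 4.5-fold lower (log2 −2.17, SE 0.557, adjusted p = 0.0206) and Jun 3.89-fold lower (log2 −1.96, SE 0.278, adjusted p = 0.00253). Fosl2 had log2 −1.76 (SE 0.272, adjusted p = 0.00336) and Fosl1 log2 −1.22 (SE 0.16, adjusted p = 0.002). Jund had log2 −0.30 (SE 0.221, adjusted p = 0.325). The call of Fos was lost without Model replicate 1 (adjusted p = 0.0523), Model replicate 3 (0.0537), rt-PA+Acu replicate 1 (0.0541) or rt-PA+Acu replicate 2 (0.0746), with its adjusted p from 0.0022 to 0.0746 over 14 alternatives.

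Of the lists, 5 of 15 bZIP partners (median −0.573), 11 of 15 targets (median −2.83), 5 of 9 nerve injury genes (median −1.79) and 9 of 16 other immediate early genes (median −1.28) fell, and none of these rose. Crem was 5.42-fold and Atf4 2.91-fold lower. Ptgs2 was 7.97-fold, Timp1 7.29-fold and Cd44 5.38-fold lower, Ccl2 went from a mean of 194 to 3.91 CPM, and Sprr1a was 10.8-fold lower. Egr3 was 3.55-fold lower, and Egr1, with overlapping libraries, 2.47-fold. Egr1 was a DEG without Model replicate 2 but not without any other single library (adjusted p from 0.0635 to 0.111). Without rt-PA+Acu replicate 3, Sprr1a was 19.7-fold, Timp1 12.3-fold and Cd44 10.3-fold lower, and Ccl2 had 1, 12 and 142 counts in the rt-PA+Acu libraries, most of them in that replicate. Of 18 kinases and upstream factors 2 rose, among them Map2k6 (7.56-fold), and 1 fell, Map2k3 (2.88-fold lower), with a median of 0.0827.

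The comparison of rt-PA+Acu with Sham gives what remained after both treatments. By edgeR 0 of 7 members were DEGs, where 0.916% of 12775 genes were higher (117 genes) and 1.14% lower (146 genes). DESeq2 called 0 members, where 1.49% of 13380 genes were higher (200 genes) and 1.69% lower (226 genes). At an unadjusted p under 0.05 with the fold, Fosb was the 1 member lower, where 2.33% of genes were (298 genes), and 0 were higher, where 2.23% were (285 genes). With shares this low over all genes, a count of 0 among 7 members is no result about the family.

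Jund was lower in every rt-PA+Acu library than in any Sham library, with log2 −0.51 (SE 0.109, adjusted p = 0.0385), under the fold threshold. Fosl1 had log2 −0.44 (SE 0.111, adjusted p = 0.0628) and Fosl2 log2 −0.53 (SE 0.274, adjusted p = 0.291), both with no overlap. Fosb had log2 −1.73 (SE 0.676, adjusted p = 0.173), Fos −1.16 (SE 0.633, adjusted p = 0.31), Jun 0.13 (SE 0.266, adjusted p = 0.807) and Atf3 −0.87 (SE 1.09, adjusted p = 0.672). Atf3 turned to log2 2.01 without Sham replicate 1 (adjusted p = 0.24, from 0.24 to 0.979 over 13 alternatives), and Jun to −0.28 without rt-PA+Acu replicate 3. Without Sham replicate 1, Fosb had log2 −0.38 and Fos −0.36 (adjusted p = 0.542 and 0.783), and Jund had −0.44 with an adjusted p of 0.14. Over 14 alternatives the adjusted p ran from 0.0988 to 0.759 for Fosb, from 0.0769 to 0.954 for Fos and from 0.00395 to 0.736 for Jund. A p that misses the threshold does not show equal levels.

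Some genes of 3 lists around AP-1 were DEGs between rt-PA+Acu and Sham. Of 13 targets tested 4 were higher and 1 lower (median 1.03; 6 higher and 1 lower by DESeq2). Timp1 was 14.8-fold higher (adjusted p = 0.00885), Cd44 6.24-fold (adjusted p = 0.0335) and Spp1 59.1-fold (adjusted p = 0.0423), and Pdyn, the gene of the opioid precursor prodynorphin, was 2.81-fold lower (adjusted p = 0.00857). Of 8 nerve injury genes 2 were higher (median 0.298), Hspb1 by 20-fold at 63.5, 53.9 and 271 CPM, and Sprr1a by 15.4-fold. Of 16 other immediate early genes 7 were lower and 0 higher (median −1.26; 9 lower and 1 higher by DESeq2), among them Arc (5.22-fold), Egr1 (3.29-fold), Nr4a1 (3.19-fold) and Egr3 (2.39-fold). No bZIP partner (median 0.0555) and no upstream kinase or factor (median 0.0638) was a DEG in edgeR or DESeq2, or passed an unadjusted p with the fold.

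These list results moved with single libraries. Without rt-PA+Acu replicate 3, Spp1 was 12.5-fold, Hspb1 8.96-fold, Timp1 8.7-fold, Sprr1a 8.37-fold and Cd44 3.24-fold higher than in Sham, all still DEGs. Cd44, Spp1 and Hspb1 were not DEGs without any 1 of the Sham libraries (adjusted p from 0.0617 to 0.18), at folds of 5.82 to 6.86 for Cd44, 40.1 to 114 for Spp1 and 17.1 to 21.8 for Hspb1. Sprr1a was not a DEG without Sham replicate 1 or 2 or rt-PA+Acu replicate 2 (adjusted p from 0.0517 to 0.134) and was 28.2-fold higher without Sham replicate 3. Spp1 was not a DEG without rt-PA+Acu replicate 2 either (adjusted p = 0.051), nor were Timp1 and Pdyn without Sham replicate 2 (adjusted p = 0.0606 and 0.0545). The striatal markers were lower in the same comparison, 3 of 4 by edgeR with a median of −2.38 and 3 of 4 by DESeq2.

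Within the family, Jun held a larger share of the counts in Model and rt-PA than in Sham. The shares and sums here cover the 9 AP-1 genes in the table and leave out Junb. The shares use counts without transcript length, so they compare a gene between groups and not genes with each other, and they were not tested. Summed AP-1 levels were 433, 300 and 257 CPM in Sham, 924, 714 and 936 CPM in Model, 754, 681 and 683 CPM in rt-PA, and 221, 210 and 317 CPM in rt-PA+Acu. Jun made up 31.2 ± 4.01% of the family's counts in Sham (SD, n = 3), 50 ± 3.69% in Model, 53.4 ± 3.38% in rt-PA, then 43 ± 7.23% in rt-PA+Acu. Model and rt-PA overlapped in that share, and Sham, at 26.6 to 34.1%, lay below the other groups.

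Jund held its smallest shares in the same groups, with 25.1 ± 4.26% in Sham, 8.09 ± 2.25% in Model and 9.58 ± 0.914% in rt-PA, against 23.4 ± 4.62% in rt-PA+Acu. Fosb held 13.5 ± 0.529% in Model against 5.19 ± 1.06% in rt-PA, with Sham spread from 4.69 to 20.2%. Atf3 held 3.9 ± 1.66% in Model and 5.01 ± 1.54% in rt-PA, above 0.814 ± 1.13% in Sham and 0.687 ± 0.334% in rt-PA+Acu.

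**Figure D5:**
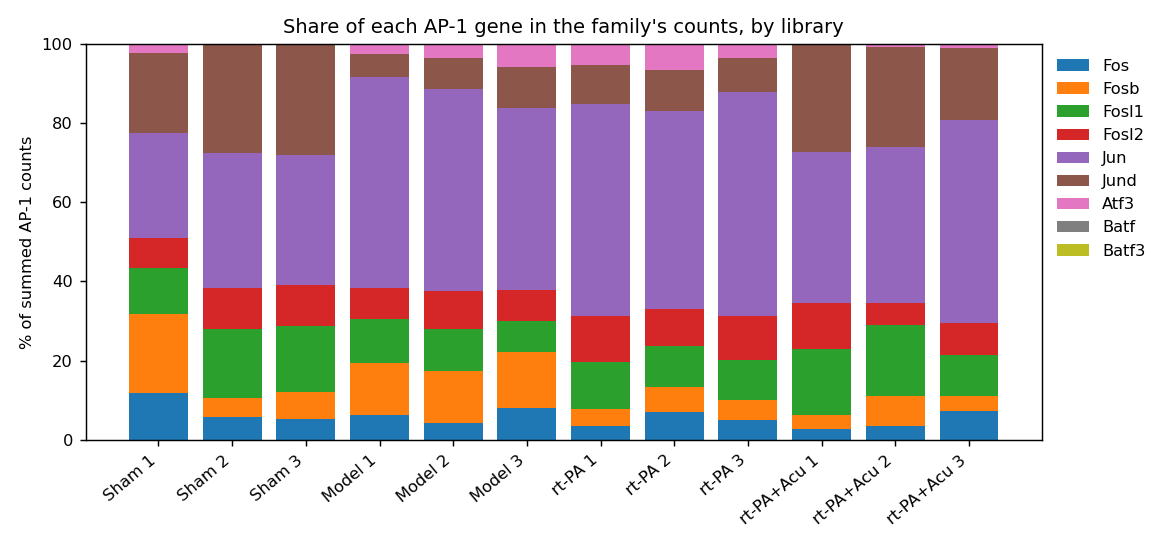
Share of each AP-1 gene in the summed counts of the 9 AP-1 genes in the table (vertical axis, %) as stacked bars, 1 bar per library for 12 libraries. Jun takes 45.9 to 53.1% in Model against 26.6 to 34.1% in Sham, and Fosb takes 20.2% in Sham replicate 1.

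Some genes outside the family had nearly the same profile as a member. Likeness was the root mean square difference of log2 CPM over the 12 libraries, each gene centred on its own mean, among 13296 genes. Closest to Fos were Sik1, a kinase gene induced by cyclic AMP (0.376), the immediate early gene Ier2 (0.54) and Fut7, a fucosyltransferase gene (0.607). Sik1 had mean levels of 14.9 CPM in Sham, 34.4 CPM in Model, 26.6 CPM in rt-PA and 8.99 CPM in rt-PA+Acu. Closest to Fosb were Crh, the gene of corticotropin-releasing hormone (0.686), Fos (0.692) and Sik1 (0.699). Crh was at means of 8.08, 26, 19.2 and 2.39 CPM in the same order.

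Fosl1 was closest to Prag1 (0.152), Rps6ka3, a kinase gene downstream of ERK (0.153), and Tmem198 (0.17). Fosl2 was closest to Trib1, a pseudokinase gene (0.256), Hic1 (0.259) and Bcl6, the gene of a transcriptional repressor (0.293). Jun was closest to P4hb, the gene of a protein folding enzyme (0.209), Klf10 (0.219) and Fhl3 (0.219). Klf10, a zinc finger gene induced by TGF-beta, was at 32.5, 138, 108 and 31.6 CPM, and P4hb at 117, 433, 409 and 133 CPM. Atf3 had more distant neighbours, Dcstamp (0.845), Gipr, the gene of an incretin receptor (0.921), and Gem, a small GTPase gene (0.946). Among the members themselves, Fosl2 and Jun were the closest pair (0.412) and Jund and Atf3 the farthest (2.4). By Pearson correlation in place of this measure, 1 of the 3 genes was shared for Fos and 0 for the other 5 members, so the names depend on the measure.

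Promoter windows of the lists were searched for the same motifs. TGACTCA was in 5 of 13 target promoters (Mmp3, Mmp10, Mmp13, Plaur and Mt2A), in 3 of 16 bZIP partners (Atf5, Bach1 and Ddit3), in 1 of 7 nerve injury genes (Sprr1a), and in 0 of 11 other immediate early genes and 0 of 15 upstream genes. A CArG box was in 3 of 11 other immediate early genes (Egr1, Egr2 and Klf6) and in 1 of 15 upstream genes, Srf. The core TGACG was in 9 of 16 partners, 8 of 15 upstream genes, 7 of 11 other immediate early genes, 4 of 13 targets and 2 of 7 injury genes, and TGACGTCA in 2, 1, 2, 1 and 0 of the same lists. The shares over all promoters, given above, were 4.63% for TGACTCA, 1.64% for a CArG box, 21.2% for TGACG and 1.83% for TGACGTCA, and the lists were not tested against them. The targets were listed as known AP-1 targets, so their matches are no independent finding.

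Markers of the cortex were present in all libraries. Cortical excitatory neuron markers, 4 of 4 in the table and led by Tbr1, summed to 377, 371 and 458 CPM in Sham, 133, 140 and 181 CPM in Model, 120, 175 and 156 CPM in rt-PA, and 453, 495 and 243 CPM in rt-PA+Acu. Striatal markers (4 of 4, led by Ppp1r1b) were also present, at 173, 623 and 465 CPM in Sham, 62.5, 98.4 and 143 CPM in Model, 61.7, 99.4 and 92.7 CPM in rt-PA, and 205, 181 and 107 CPM in rt-PA+Acu, with Sham replicate 1 the lowest Sham library. Opposite to Jun and Atf3, 2 of 4 excitatory markers were lower in Model vs Sham and 2 of 4 higher after acupuncture than in rt-PA. Emx1, of the same list, had means of 14.2 CPM in Sham, 16.4 CPM in Model, 14 CPM in rt-PA and 15.1 CPM in rt-PA+Acu. The striatal markers, 4 of 4, were lower in Model vs Sham. In bulk tissue, fewer cells of a type and less RNA per cell cannot be told apart.

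Other cell types differed between the groups too. Oligodendrocyte markers (5 of 5, led by Mbp) summed to 10300, 12920 and 15190 CPM in Sham, 1464, 3373 and 7318 CPM in Model, 2376, 9893 and 2995 CPM in rt-PA and 18330, 7555 and 2861 CPM in rt-PA+Acu, so single groups spanned wide ranges, with 4 of 5 lower in Model vs Sham and 0 of 5 called after acupuncture against rt-PA or Model, by edgeR, DESeq2 or an unadjusted p with the fold. Neuronal markers (5 of 5, led by Snap25) summed to 4518, 4442 and 5220 CPM, 4311, 4545 and 4635 CPM, 3459, 4169 and 4327 CPM, and 5569, 5898 and 3930 CPM in the same order of groups, with 1 of 5 lower in Model vs Sham and 1 of 5 higher after acupuncture. Rt-PA+Acu replicate 3, the highest of its group for Jun and Atf3, was the lowest for neuronal, excitatory, striatal and oligodendrocyte markers. Astrocyte markers (5 of 5, led by Gfap) summed to 2994, 3578 and 2943 CPM, 3762, 5579 and 4845 CPM, 4343, 4240 and 4945 CPM, and 4804, 4627 and 6522 CPM. Of those 5, 1 was higher and 3 lower in Model vs Sham, and 2 were higher in rt-PA+Acu vs rt-PA.

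Macrophage markers (5 of 5, led by Lyz2) summed to 57.8, 77.7 and 59.7 CPM in Sham and 39.4, 34 and 49.3 CPM in rt-PA+Acu, below the Model and rt-PA sums. All 5 were higher in rt-PA vs Sham and 4 of 5 lower in rt-PA+Acu vs rt-PA. Neutrophil markers (5 of 5, led by S100a9) summed to 11.6, 6.88 and 9.34 CPM in Sham, 3.74, 7.79 and 15.1 CPM in Model, 67.1, 29.8 and 10.8 CPM in rt-PA and 5.31, 5.15 and 3.36 CPM in rt-PA+Acu, with 3 of 4 tested lower in rt-PA+Acu vs rt-PA. Among microglial markers P2ry12 and Tmem119, chosen after their values were seen, were DEGs in Model and rt-PA against Sham, lower in both. P2ry12 had mean levels of 66, 5.23, 3.89 and 32.5 CPM and Tmem119 of 53.8, 14, 13.8 and 20.3 CPM in the same order of groups, and P2ry12 was 8.32-fold higher with acupuncture (adjusted p = 0.00133).

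Endothelial markers (4 of 5 in the table, led by Vwf) summed to 225, 244 and 219 CPM, 189, 176 and 342 CPM, 417, 322 and 349 CPM, and 152, 142 and 168 CPM, with 3 of 4 lower in rt-PA+Acu vs rt-PA. Meningeal and fibroblast markers (4 of 4, led by Col1a2) summed to 27.4, 66.4 and 57 CPM, 20.1, 47.6 and 21.7 CPM, 210, 53 and 132 CPM, and 93.8, 44.6 and 52.1 CPM, with 2 of 4 higher in rt-PA vs Sham, 2 higher in rt-PA+Acu vs Model and 1 lower after acupuncture against rt-PA. Dendritic cell markers (5 of 5, led by Cd74) reached at most 61.1 CPM, in rt-PA replicate 1, T cell markers (5 of 5, led by Cd2) at most 4.65 CPM and choroid plexus markers (4 of 4, led by Clic6) at most 1.68 CPM. Red blood cell markers had no entry and were not analysed here. The part of these cell types in the AP-1 results was not tested.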

How the data were processed

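The authors aligned paired-end reads from a stranded poly(A) library kit to mRatBN7.2 with STAR 2.7.10a and counted uniquely mapped pairs on genes with Salmon 1.9.0, giving the deposited raw count per gene and library, which was used as given. How whole numbers were made from Salmon estimates, whether strand was used, and whether the adapters' molecular identifiers were used is not stated, and the labels also list featureCounts 2.0.1 without a role. RefSeq gene models overlap those of Fosb, Atf3 and Batf, so counts there could include a neighbour. Of 17268 genes, 1373 had no count and 15895 had one.

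Each pairwise fit took the 6 libraries of its groups in edgeR 4.0.16 (limma 3.58.1, R 4.3.3): filterByExpr, TMM factors (0.9476 to 1.077), the quasi-likelihood F test and Benjamini-Hochberg adjustment over all genes tested. CPM used the same factors. Each SE was the absolute log2 fold change divided by the square root of the F statistic. It was thus derived from the test and is not an SE that edgeR reports. DESeq2 1.42.0 was the other tool. Python 3.11.15 and matplotlib 3.10.9 drew the figures.

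The members and lists were chosen with earlier results of these data known, so counts are read beside the share of all genes called. Named were all members, at most 4 genes per list and comparison by the largest mean CPM among its DEGs, and the 3 genes most like each member that was a DEG in at least 1 comparison. Sequence reads were not used.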

Additional observations from a re-analysis of the deposited data

How the results depend on the processing

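Of 590 log2 fold changes of members under alternatives, 547 kept their direction and call, 15 gained a call with the same sign, 5 lost it and 23 changed sign, of which 1 was also called (Fosb in rt-PA vs Sham without Sham replicate 1), and of 72 group means of CPM under other scalings 0 moved beyond 1 SD. The number of AP-1 DEGs in Model vs Sham was 5 with the replicate block, where 1193 of 12884 genes were higher. It was 4 in the 12-library fit (1267 of 13298 genes higher) and at an unadjusted p (1251 of 12884), with Fosb added. By adjusted p alone it was 4 (Fosl1 added, 3519 of 12884 higher). At 10 counts in every library it was 2 (Atf3 not tested, 934 of 11943 higher). Leaving out 1 library gave 3 to 5. Leaving out both doubted libraries, an alternative added after seeing the data, gave 5. The number of AP-1 DEGs in rt-PA vs Model was 1 by DESeq2 and 1 at an unadjusted p. In rt-PA vs Sham it was 3 to 5 leaving out 1 library. There it was 4 by adjusted p alone (Fosl1 added, 3570 of 13023 genes higher) and 2 at 10 counts (Atf3 not tested, 1052 of 12076). In rt-PA+Acu vs Sham it was 1 by adjusted p alone (Jund, 434 of 12775 genes lower) and 1 at an unadjusted p (Fosb, 298 of 12775). The library split term, with Model replicate 3 on the Sham side and the other 8 libraries opposite, reaches Sham through Model replicate 3 alone, so its values against Sham rest on that 1 library and show no stability; the ranges in the report include it. With this term, the log2 fold change of Jund was 0.2737 for Model and 0.5519 for rt-PA against Sham, 0.2782 for rt-PA and 0.0219 for rt-PA+Acu against Model, and 0.2956 for rt-PA+Acu against Sham; Fosb had 0.1624 in rt-PA vs Sham and Atf3 0.3006 in rt-PA+Acu vs Sham. With the replicate block, Jund had 0.007357 in rt-PA vs Model, Fosb 0.3546 in rt-PA vs Sham and Atf3 0.178 in rt-PA+Acu vs Sham. By library size alone Jund had 0.00738 in rt-PA vs Model. Leaving out 1 library, values in rt-PA vs Model ran from −0.1884 to 0.2724 for Jund, −0.2604 to 0.05318 for Fosl1, −0.02661 to 0.1943 for Fosl2 and −0.1472 to 0.558 for Atf3. They ran from −0.5502 to 1.206 for Fosb in rt-PA vs Sham, −0.4487 to 0.01917 for Jund in rt-PA+Acu vs Model, −0.279 to 0.2997 for Jun and −1.595 to 2.008 for Atf3, both of the last in rt-PA+Acu vs Sham. The cause was not tested. Fos under acupuncture (rt-PA+Acu vs rt-PA) became a DEG with no filter, with 10 counts in every library, by library size alone and with the block, and at 10 counts in every library Atf3 was not tested there or in rt-PA+Acu vs Model. With no filter beyond 1 count, Batf was a DEG in rt-PA vs Sham. By library size alone the median log2 fold change of all genes was 0.15 in rt-PA vs Sham, with 1716 genes higher and 1255 lower against 1431 and 1509, and −0.1 for rt-PA+Acu against rt-PA, with 766 higher and 1214 lower against 932 and 1061. The AP-1 DEGs there were the same genes, with Fos added in the latter. Over all genes in rt-PA+Acu vs Sham, DESeq2 called 426 DEGs and leaving out 1 library 82 to 359. In rt-PA vs Model, where edgeR called 0, DESeq2 called 82, the 12-library fit 2, the split term 17 and leaving out 1 library 0 to 3. By adjusted p alone the DEGs against Sham were 6951 for Model, 7127 for rt-PA and 651 for rt-PA+Acu, and those for rt-PA+Acu were 4522 against rt-PA and 4411 against Model. Replicate numbers do not pair the libraries, since 3 of 18 pairs with the same number had a correlation above 0.1 after removal of group means. Shares per transcript length were not run, since no lengths were at hand.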
